A study of Mus musculus with 24 samples.

Results

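The genes described were the subunits and cofactors of Polycomb repressive complex 2 (PRC2), taken by name. They were 10 genes, Ezh1, Ezh2, Suz12, Eed, Jarid2, Aebp2, Mtf2, Phf1, Phf19 and Epop, out of 35591 genes in the count table, and all 10 passed the filter on low counts in every comparison. Expression was measured by poly(A) RNA sequencing in 6 lines of male mouse embryonic stem cells (mESCs) on their way to neuromesodermal progenitors (NMPs), the precursors of spinal cord and trunk mesoderm. Each line came from its own blastocyst of a cross between a Castaneus (Cast) mother with 2 working copies of Smchd1 and a C57BL/6 father that carried a deleted and a floxed Smchd1 allele together with the MMTV-Cre transgene. The wt lines were Smchd1[fl/+], with a floxed allele from the father, and the het lines were Smchd1[del/+], with the deleted allele from the father. There were 3 wt and 3 het lines, all on the hybrid Cast and C57BL/6 background and all from oocytes with normal Smchd1. Each line was sampled on day 0 in serum medium with LIF, on day 2 after culture in N2B27 medium with bFGF, on day 2.5, which was 12 h after the Wnt agonist CHIR99021 was added on day 2, and on day 3. This gave 8 groups of 3 libraries, and the line was the replicate. Cells for day 0 were seeded more densely than those for the later days, so every comparison with day 0 also differs in seeding density. The comparison of het with wt asked what a single working zygotic copy of Smchd1, a chromatin protein of gene silencing, changes when the oocyte supply is normal.

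PRC2 places methyl groups on lysine 27 of histone H3 (H3K27), and its trimethyl form, H3K27me3, marks silent developmental genes such as the Hox clusters in stem cells. Its core joins a methyltransferase, EZH2 or its paralogue EZH1, to the scaffold SUZ12 and to EED, which binds H3K27me3 and stimulates the enzyme. Accessory proteins join the core in alternative forms, PRC2.1 with one of the Polycomb-like proteins PHF1, MTF2 or PHF19 and often EPOP, and PRC2.2 with JARID2 and AEBP2. They steer the complex to CpG-rich DNA or to nucleosomes that carry the mark of Polycomb repressive complex 1 (PRC1).

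Library totals ranged from 7.10 to 20.8 M (mega) counts with a median of 17.9 M, and wt line 2 on day 2.5 was the smallest. Smchd1 was measured at 87.3 to 124 counts per M counts (CPM) in the het libraries and at 124 to 217 CPM in the wt libraries, with no overlap of the genotypes on any day. Summed over days and over genes with at least 1 CPM in each line, those of chromosome 8 in wt line 1 had a median log2 ratio of 0.19 to the mean of the 6 lines, against at most 0.07 in size for the other lines and chromosomes. No member lies on chromosome 8, but the marker genes Zfp42 and Sox1 and the S phase genes Mcm5, Cdt1 and Gins2, used further on, do. The pluripotency markers Pou5f1, Nanog, Zfp42, Esrrb and Klf4 had a summed level of 2148 to 2440 CPM on day 0 and 249.6 to 504 CPM on day 3, while T, Nkx1-2, Cdx2 and Cdx1, which mark NMPs, had 2.35 to 6.90 CPM on day 0 and 599.8 to 1199.9 CPM on day 2.5. In these bulk libraries, fewer cells of a type and less RNA per cell cannot be told apart.

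The start-site regions of 9 members were found in RefSeq (GRCm38.p6, 250 bases before to 50 bases after the start site, 13 regions in all), and 4 are printed because they set the genes with a match to a cell cycle motif beside Ezh1, the catalytic gene whose level moved most. The letters searched, on both strands, were TTTCCCGC or TTTGGCGC for E2F factors, CTTTGAA or CTTTGAT for Tcf/Lef factors and CACGTG for the E-box. Capitals mark a match.
Phf19, chr2:34913927-34914226, minus strand: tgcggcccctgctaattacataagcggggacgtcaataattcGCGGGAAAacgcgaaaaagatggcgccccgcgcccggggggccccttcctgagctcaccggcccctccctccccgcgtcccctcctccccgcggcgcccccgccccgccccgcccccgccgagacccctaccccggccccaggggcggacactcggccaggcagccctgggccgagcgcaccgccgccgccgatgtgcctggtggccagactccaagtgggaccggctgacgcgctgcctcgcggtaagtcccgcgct
Ezh2, chr6:47594981-47595280, minus strand: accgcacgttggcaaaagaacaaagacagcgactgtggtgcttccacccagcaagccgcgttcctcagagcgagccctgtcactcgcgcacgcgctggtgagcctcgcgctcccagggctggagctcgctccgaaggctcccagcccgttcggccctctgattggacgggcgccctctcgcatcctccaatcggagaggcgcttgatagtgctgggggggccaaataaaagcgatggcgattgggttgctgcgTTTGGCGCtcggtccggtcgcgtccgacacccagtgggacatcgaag
Suz12, chr11:79992856-79993155, plus strand: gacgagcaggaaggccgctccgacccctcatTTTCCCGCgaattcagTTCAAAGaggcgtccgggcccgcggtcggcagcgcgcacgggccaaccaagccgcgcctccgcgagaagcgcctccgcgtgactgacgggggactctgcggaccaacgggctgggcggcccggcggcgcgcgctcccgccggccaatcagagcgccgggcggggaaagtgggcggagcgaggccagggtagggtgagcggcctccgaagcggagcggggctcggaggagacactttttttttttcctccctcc
Ezh1, chr11:101226414-101226713, minus strand: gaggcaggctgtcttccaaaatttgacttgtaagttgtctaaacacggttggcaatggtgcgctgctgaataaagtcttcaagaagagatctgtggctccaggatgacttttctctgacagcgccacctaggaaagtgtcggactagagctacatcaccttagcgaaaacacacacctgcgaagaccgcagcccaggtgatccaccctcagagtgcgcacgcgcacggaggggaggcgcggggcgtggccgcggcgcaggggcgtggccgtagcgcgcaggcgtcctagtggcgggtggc
The E2F letters were found in 3 of the 13 member regions, those of Phf19, Ezh2 and Suz12, starting at bases -208, 3 and -219 from the start site. Of all 32851 regions of this length, 1.565% held them. The E2F letters contain a CpG, and regions of like CpG content were not compared. Suz12 also held the Tcf/Lef letters at base -203 (8.651% of all regions), and 0 members held the E-box letters (7.15% of all regions). The 13 member regions had a GC content of 45.7 to 74.3% and 2 to 41 CpG dinucleotides, and the 4 printed ones 59.3 to 74.3% and 23 to 41, against medians of 52.67% and 7 over all regions. These matches describe letters only, and no binding was measured.

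Levels between genes were compared per length, as reads per kilobase of merged exons per M (mega) TMM-scaled counts (RPKM). At day 0 in the wt lines, Epop, Suz12 and Eed stood highest, with 103 ± 20.5, 93.3 ± 14.1 and 88.3 ± 1.41 RPKM (SD, n = 3), and neighbours among these overlapped. Jarid2 with 75.8 ± 3.71, Mtf2 with 61.4 ± 6.14, Ezh2 with 34.3 ± 3.20, Phf19 with 24.6 ± 1.70, Aebp2 with 13.4 ± 1.87, Ezh1 with 3.10 ± 0.109 and Phf1 with 0.963 ± 0.102 RPKM followed, each with its 3 wt libraries apart from those of the next gene. This order depends on the length used. Per kilobase of coding sequence, Eed had the highest mean, Jarid2 and Mtf2 overlapped, and Aebp2 at 79.9 to 101.5 lay above Phf19 at 66.3 to 76.1. Over the 8 group means, Ezh2 spanned the narrowest range, 31.7 to 42.2 RPKM (1.33-fold), and Phf19 the widest, 0.704 to 25.3 RPKM (36.0-fold). The other members ranged from 1.97-fold for Suz12 to 6.44-fold for Jarid2. Phf1 had 14 to 109 counts per library, and Phf19 had 28 to 178 on days 2.5 and 3, so these values carry a large counting error.

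**Figure D1:**
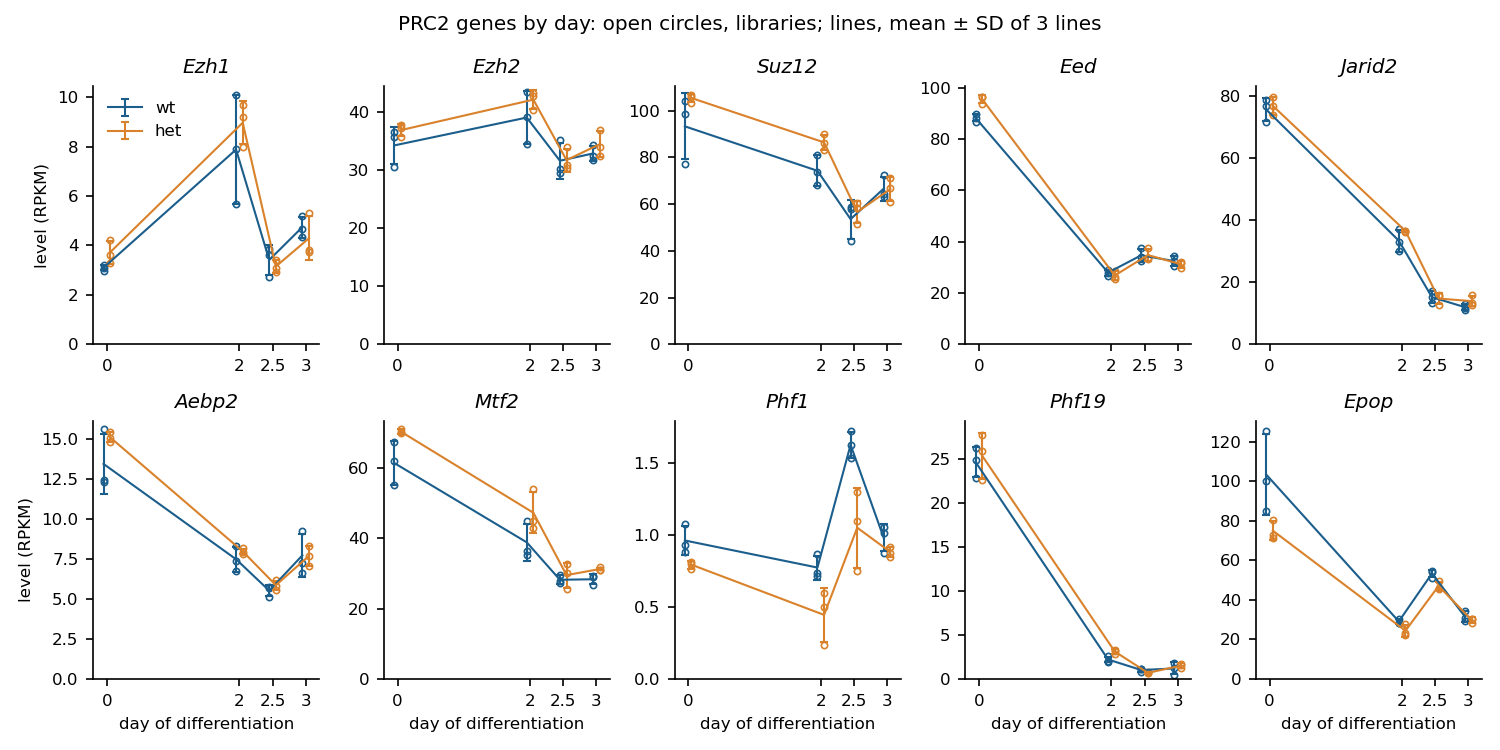
Levels of the 10 PRC2 genes in RPKM (vertical axes from 0, one scale per gene) against the day of differentiation, with open circles for libraries and lines for the mean ± SD of 3 wt or 3 het lines. Ezh2 stays within 31.7 to 42.2 RPKM in its group means, while Phf19 has group means of 24.6 and 25.3 RPKM on day 0 and none above 3.13 RPKM later.

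The change from day 0 to day 2, when LIF and serum were withdrawn, was a fall of most accessory genes and of Eed beside a rise of Ezh1. In wt lines, 7 of 10 members fell and 1 rose (edgeR quasi-likelihood test, Benjamini-Hochberg adjusted p under 0.05 over all genes), where 21.9% of all genes tested fell and 22.4% rose. In het lines, 7 fell and 2 rose, where 28.1% of all genes fell and 28.0% rose. The median log2 fold change over the 10 members was -0.75 in wt and -0.87 in het, against 0.02 and 0.01 over all genes. Over the same step the pluripotency markers went from means of 2348 and 2216 CPM in wt and het to 909 and 973 CPM, and the 10 endoderm markers named further on went from means of 373 and 204 CPM to 1115 and 535 CPM. The part of these changes in the PRC2 values was not tested.

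Among the catalytic genes, Ezh1 and Ezh2 differed in how they moved. Ezh1 (chr11:101191115-101226463, minus strand) was at 2.98, 3.20 and 3.10 RPKM in wt lines 1 to 3 on day 0, at 10.1, 5.67 and 7.90 on day 2, at 3.87, 2.73 and 3.63 on day 2.5, and at 4.67, 4.36 and 5.19 on day 3. In het lines 1 to 3 it was at 4.24, 3.63 and 3.30 RPKM on day 0, at 7.998, 9.68 and 9.22 on day 2, at 3.08, 3.43 and 2.93 on day 2.5, and at 3.82, 5.31 and 3.73 on day 3. The 6 libraries of day 2 were the highest for this gene and did not overlap with any other day. On the log2 scale Ezh1 rose to day 2 by 1.35 in wt (adjusted p 4.98e-05, SE 0.19) and 1.28 in het (adjusted p 2.20e-07, SE 0.12). It was followed within 12 h of Wnt activation by a fall of 1.20 in wt (adjusted p 0.00102, SE 0.21) and of 1.53 in het (adjusted p 3.03e-07, SE 0.12). From day 2.5 to day 3, Ezh1 moved up in 6 of 6 lines, with a log2 fold change of 0.47 in wt (adjusted p 0.0590) and 0.42 in het (adjusted p 0.0480). The wt rise was called with the line as a block (adjusted p 0.0142), by the DESeq2 Wald test (0.0354), without line 1 (0.0320) and in the fit of all 24 libraries (0.0491). The het call did not hold in the fit of all 24 libraries together or without any 1 of the 3 het lines (adjusted p 0.0629 to 0.148). Against day 0, the day 3 level was higher in wt (0.62, adjusted p 0.00206, and 0.0684 without line 3), and in het the log2 fold change was 0.21 (adjusted p 0.232). Without het line 2 it was 0.0072, and without het line 1 it was 0.39.

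Ezh2 (chr6:47530139-47595341, minus strand), the methyltransferase that predominates in dividing cells, was far steadier. Its wt libraries ran from 29.6 to 43.5 RPKM and its het libraries from 30.4 to 43.3 RPKM over the 4 days, with the highest library of either genotype on day 2. The log2 fold change from day 0 to day 2 was 0.20 in both genotypes, with an adjusted p of 0.170 in wt and 0.00758 in het, and the het call did not hold without het line 1 or in the fit of all 24 libraries (adjusted p 0.0925 and 0.0869). Without wt line 2 the wt value was 0.33 and called (adjusted p 0.0463), and without wt line 1 it was 0.044 (adjusted p 0.783). From day 2 to day 2.5 it was -0.31 in wt (adjusted p 0.0748) and -0.43 in het (adjusted p 0.000414). The wt fall was called in the fit of all 24 libraries (0.0102) and with no filter beyond 1 count (0.0492). Without wt line 1 the wt value was -0.19 (adjusted p 0.315), and without wt line 2 it was -0.48 (adjusted p 0.0535). Between day 3 and day 0 the log2 fold change was -0.05 in wt and -0.09 in het, and with library totals as the only scaling it was 0.04 and 0.02.

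The share of Ezh1 in the summed RPKM of Ezh1 and Ezh2 followed from these values. It was 8.31 ± 0.490% in wt and 9.14 ± 0.939% in het on day 0, and 16.5 ± 2.35% and 17.5 ± 1.88% on day 2 (SD, n = 3). At day 2.5 it was 9.83 ± 2.31% in wt and 9.04 ± 1.04% in het, and on day 3 it was 12.6 ± 1.02% and 11.1 ± 2.15% (SD, n = 3). The 6 day 2 libraries, at 14.1 to 19.3%, lay above the other 18, whose highest value was 13.8%. These shares depend on the lengths of the transcripts used, and with coding length in place of merged exons the day 0 share in wt was 9.13%.

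Of the other core genes, Suz12 and Eed fell with different timing. Eed (chr7:89954654-89980983, minus strand), the reader of H3K27me3, was at 86.9, 89.7 and 88.3 RPKM in wt lines 1 to 3 on day 0 and at 26.8, 27.9 and 29.1 on day 2. In het lines it was at 93.8, 96.4 and 96.5 RPKM on day 0 and at 28.7, 25.5 and 26.3 on day 2. The days were far apart in both genotypes, and Eed fell by 1.65 in wt (adjusted p 2.00e-08, SE 0.10) and by 1.82 in het (adjusted p 7.13e-12, SE 0.06) on the log2 scale. At day 2.5 the 6 libraries were at 32.4 to 37.6 RPKM, above all 6 of day 2, with a log2 fold change of 0.31 in wt (adjusted p 0.0603) and a rise of 0.35 in het (adjusted p 0.00400). The wt rise was called in the fit of all 24 libraries (adjusted p 0.00335) and with library totals alone (0.0427). Suz12 (chr11:79993106-80034123, plus strand), the scaffold of the complex, fell less at first, by 0.32 in wt (adjusted p 0.0362, SE 0.12) and by 0.28 in het (adjusted p 0.000293, SE 0.05). The wt fall was not called with the line as a block (adjusted p 0.05001), with library totals alone (0.0588) or without line 2 or line 3 (0.313 and 0.220). The log2 fold change was -0.50 without line 1 and -0.17 without line 2. It then fell by 0.48 in wt (adjusted p 0.0150) and by 0.63 in het (adjusted p 2.45e-05) to day 2.5, when its levels were 53.6 ± 8.31 and 56.6 ± 4.73 RPKM (SD, n = 3). This wt call did not hold without line 1, where the log2 fold change was -0.28 (adjusted p 0.0899), or without line 3 (adjusted p 0.0535). By day 3 Suz12 stood at 66.7 ± 5.14 RPKM in the wt lines and at 66.5 ± 5.11 RPKM in the het lines (SD, n = 3), and it remained below day 0 by 0.48 and 0.66 on the log2 scale (adjusted p 0.00306 and 1.78e-06). A transcript annotated on the opposite strand shares exon bases with Ezh2, Suz12, Eed and Mtf2, and the counting is not stated to use strand, so reads of both cannot be told apart there.

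The PRC2.2 genes fell, and Jarid2 fell most steadily. Jarid2 (chr13:44729474-44921643, plus strand), whose protein helps recruit PRC2 and is itself a substrate of the enzyme, was at 71.6, 77.0 and 78.7 RPKM in wt lines 1 to 3 on day 0, at 37.2, 33.1 and 30.0 on day 2, at 17.1, 13.2 and 15.3 on day 2.5, and at 13.1, 11.0 and 11.8 on day 3. In het lines it was at 79.9, 77.0 and 74.0 RPKM, then at 36.6, 36.4 and 36.7, at 12.7, 15.9 and 15.6, and at 13.4, 15.7 and 12.7. Days 0, 2 and 2.5 did not overlap. Jarid2 fell from day 0 to day 2 by 1.17 in wt (adjusted p 6.86e-07) and 1.06 in het (adjusted p 1.70e-10), and again to day 2.5, when it fell by 1.14 (adjusted p 4.48e-05) and 1.33 (adjusted p 8.02e-08). Over the whole course it fell by 2.66 in wt (adjusted p 1.33e-09, SE 0.10) and by 2.46 in het (adjusted p 1.48e-10, SE 0.08). Aebp2 (chr6:140622663-140678472, plus strand), its zinc finger partner, fell by 0.84 in wt and 0.91 in het to day 2 (adjusted p 0.000113 and 2.97e-08) and by 0.44 and 0.46 to day 2.5 (adjusted p 0.0249 and 0.000963). It then rose to day 3, by 0.49 in wt (adjusted p 0.0370) and 0.37 in het (adjusted p 0.0103), in 6 of 6 lines. This wt call did not hold without line 2, where it was 0.28, or line 3 (adjusted p 0.331 and 0.111) and the het call did not hold without line 3 (0.0900). The wt fall to day 2.5 was not called without any 1 of the 3 lines (adjusted p 0.0569 to 0.161).

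Among the Polycomb-like genes of PRC2.1, Phf19 fell furthest of all members. Phf19 (chr2:34893757-34914026, minus strand), which binds methylated lysine 36 of histone H3 through its Tudor domain, was at 22.8, 24.9 and 26.2 RPKM in wt lines 1 to 3 on day 0 and at 2.58, 1.99 and 2.08 on day 2. It was then at 1.17, 0.767 and 1.15 RPKM on day 2.5 and at 1.28, 0.490 and 1.85 on day 3. In het lines it was at 25.8, 27.6 and 22.5 RPKM on day 0, at 3.32, 3.23 and 2.84 on day 2, at 0.799, 0.642 and 0.671 on day 2.5, and at 1.26, 1.58 and 1.74 on day 3. The lowest day 0 library was above every later library by a wide margin, and the 6 libraries of day 2 lay above those of days 2.5 and 3. Phf19 fell to day 2 by 3.46 in wt (adjusted p 7.84e-10, SE 0.14) and by 3.01 in het (adjusted p 7.13e-12, SE 0.11) on the log2 scale. To day 2.5 it fell again, by 1.09 in wt (adjusted p 0.00814, SE 0.27, and 0.0624 without line 2) and in het it fell by 2.17 (adjusted p 2.17e-06, SE 0.21). It then rose by 1.09 in het (adjusted p 0.00341, SE 0.22, and 0.0582 without line 3), while the wt log2 fold change was 0.21 (adjusted p 0.758, SE 0.41).

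Mtf2 and Phf1, the other Polycomb-like genes, moved in opposite directions at Wnt activation. Mtf2 (chr5:108065674-108109004, plus strand), which recruits PRC2 to unmethylated CpG islands, fell from 61.4 ± 6.14 RPKM in wt and 70.4 ± 0.692 in het on day 0 to 38.9 ± 5.22 and 47.3 ± 5.82 on day 2 and to 28.2 ± 1.26 and 29.5 ± 3.57 on day 2.5 (SD, n = 3). Its log2 fold change from day 0 to day 3 was -1.11 in wt (adjusted p 1.25e-06) and -1.17 in het (adjusted p 3.12e-09), and day 3 against day 2.5 gave 0.01 and 0.06, neither called. Its wt fall of 0.47 from day 2 to day 2.5 had an adjusted p of 0.0116, and of 0.0651 and 0.0539 without line 1 and line 2. Phf1 (chr17:26933052-26937908, plus strand) had few counts, and its level was 0.736, 0.718 and 0.870 RPKM in wt lines and 0.499, 0.239 and 0.599 in het lines on day 2, and 1.72, 1.62 and 1.54 in wt lines and 1.10, 1.30 and 0.753 in het lines on day 2.5. It was higher on day 2.5 than on day 2 in 6 of 6 lines, by 1.06 in wt (adjusted p 0.0260, SE 0.33) and 1.22 in het (adjusted p 0.0380, SE 0.45). The wt call did not hold without any 1 of the 3 lines (adjusted p 0.0907 to 0.133), and the het call did not hold with the line as a block (0.0678) or without line 1 or line 2 (0.134 and 0.294). Without het line 2 the log2 fold change was 0.73. Exons of Cuta overlap Phf1 on the opposite strand, and 74.3% of its 75-base stretches occur in no other gene's transcripts, so its few counts are uncertain.

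Epop, an accessory gene whose protein links PRC2.1 to Elongin B and C, fell, rose and fell again. Epop (chr11:97627389-97629702, minus strand) was at 125, 84.8 and 99.9 RPKM in wt lines 1 to 3 on day 0, at 28.4, 30.5 and 28.5 on day 2, at 54.9, 51.3 and 53.9 on day 2.5, and at 29.2, 30.7 and 34.5 on day 3. In het lines it was at 71.3, 80.6 and 73.0 RPKM, then at 27.8, 22.3 and 23.1, at 45.5, 46.2 and 49.4, and at 28.3, 30.5 and 30.6. Day 2.5 did not overlap with the days on either side, and each of the 6 lines moved down, up and down. The log2 fold changes in wt were -1.82 (adjusted p 2.04e-07), 0.87 (adjusted p 0.000167) and -0.76 (adjusted p 0.00171, and 0.0805 without line 2), and in het they were -1.61 (adjusted p 1.01e-09), 0.93 (adjusted p 7.33e-06) and -0.68 (adjusted p 0.000172).

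Over the step from day 2 to day 2.5, 6 members fell and 2 rose in wt, where 14.5% of all genes tested fell and 14.6% rose. In het, 7 fell and 3 rose, so that 10 of 10 were called, where 22.9% of all genes fell and 21.8% rose. The wt count, refitted with 2 lines, was 4 without line 1, 4 without line 2 and 5 without line 3. Over all genes these refits called 3875 of 15580, 2249 of 15804 and 2545 of 15845, against 4519 of 15540 with all lines. The library of line 2 on day 2.5 was the smallest of the series. From day 2.5 to day 3, 1 member rose and 1 fell in wt (8.99% of all genes rose and 10.1% fell), and 3 rose and 1 fell in het (13.8% and 16.0%). With the line as a block, 5 members were called in wt over that step, Suz12, Ezh1 and Jarid2 in addition to Aebp2 and Epop. Without line 2 there were 0 and without line 3 there was 1. Over all genes 4687 of 15292 were called with the block, 29 of 15560 without line 2 and 988 of 15569 without line 3. In het the count was 1 without line 3, where 2386 of 16014 genes were called in place of 4710 of 15801. Between day 0 and day 3, 7 fell and 1 rose in wt (26.6% and 27% of all genes), and 7 fell and 0 rose in het (31.6% and 32.7%). The 7 that fell were Suz12, Eed, Jarid2, Aebp2, Mtf2, Phf19 and Epop in both genotypes.

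**Figure D2:**
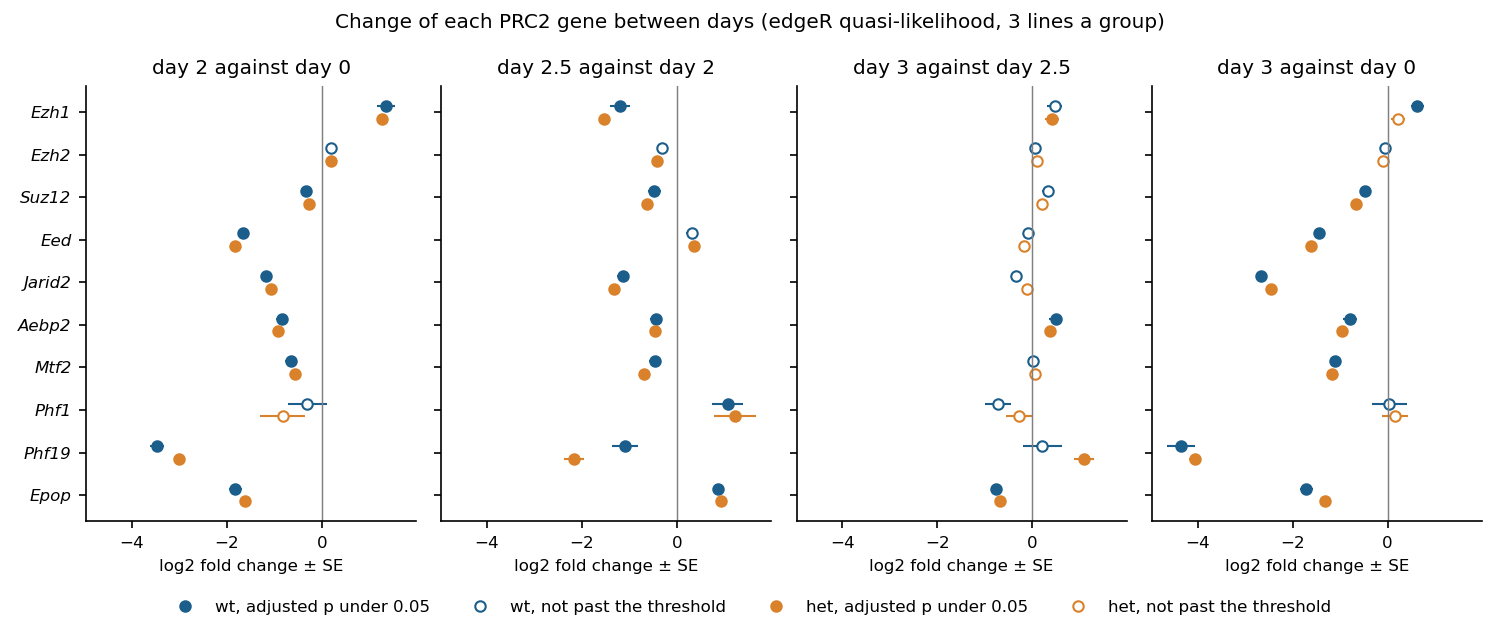
Log2 fold change ± SE (horizontal axes) of each PRC2 gene (vertical axis) over 4 pairs of days, in wt and het lines, with filled points for an adjusted p under 0.05 and open points otherwise. Ezh1 lies at 1.35 and 1.28 for day 2 against day 0 and at -1.20 and -1.53 for day 2.5 against day 2, and Phf19 lies at -4.35 and -4.05 for day 3 against day 0.

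The summed level of the 6 accessory genes was lower on day 2 than on day 0, while that of the catalytic genes was higher. The 6 genes summed to 279.5 ± 8.84 RPKM in wt and 263 ± 7.09 in het on day 0, to 112 ± 9.40 and 119.8 ± 4.96 on day 2, to 105 ± 3.03 and 99.0 ± 6.54 on day 2.5, and to 81.7 ± 3.53 and 85.1 ± 2.54 on day 3 (SD, n = 3). Ezh1 and Ezh2 summed to 37.4 ± 3.30 and 40.7 ± 1.38 RPKM on day 0, to 47.0 ± 6.73 and 51.2 ± 1.03 on day 2, to 35.1 ± 2.55 and 34.9 ± 1.81 on day 2.5, and to 37.7 ± 1.46 and 38.8 ± 2.37 on day 3. The PRC2.2 genes, Jarid2 and Aebp2, made up 32.0 ± 2.61% of the accessory sum in wt and 34.9 ± 1.15% in het on day 0, 36.5 ± 0.911% and 37.2 ± 1.53% on day 2, 19.7 ± 1.56% and 20.8 ± 0.650% on day 2.5, and 24.1 ± 1.71% and 25.4 ± 0.760% on day 3. The 6 libraries of day 2.5, at 18.0 to 21.6%, lay below all others. Epop is part of the accessory sum and was higher on day 2.5 than on days 2 and 3, which lowers this share on day 2.5. EPOP can join the same complex as a Polycomb-like protein, so the sum does not count complexes. The share without Epop was not computed. Epop made up 50.8 ± 0.311% of the sum in wt and 47.6 ± 1.65% in het on day 2.5, against 26.2 ± 2.51% and 20.4 ± 2.56% on day 2. With coding length in place of merged exons the PRC2.2 share was higher throughout, and its lowest group means were again those of day 2.5, at 26.7% and 28.1%. These are shares of RNA, and the protein makeup of the complex was not measured.

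**Figure D3:**
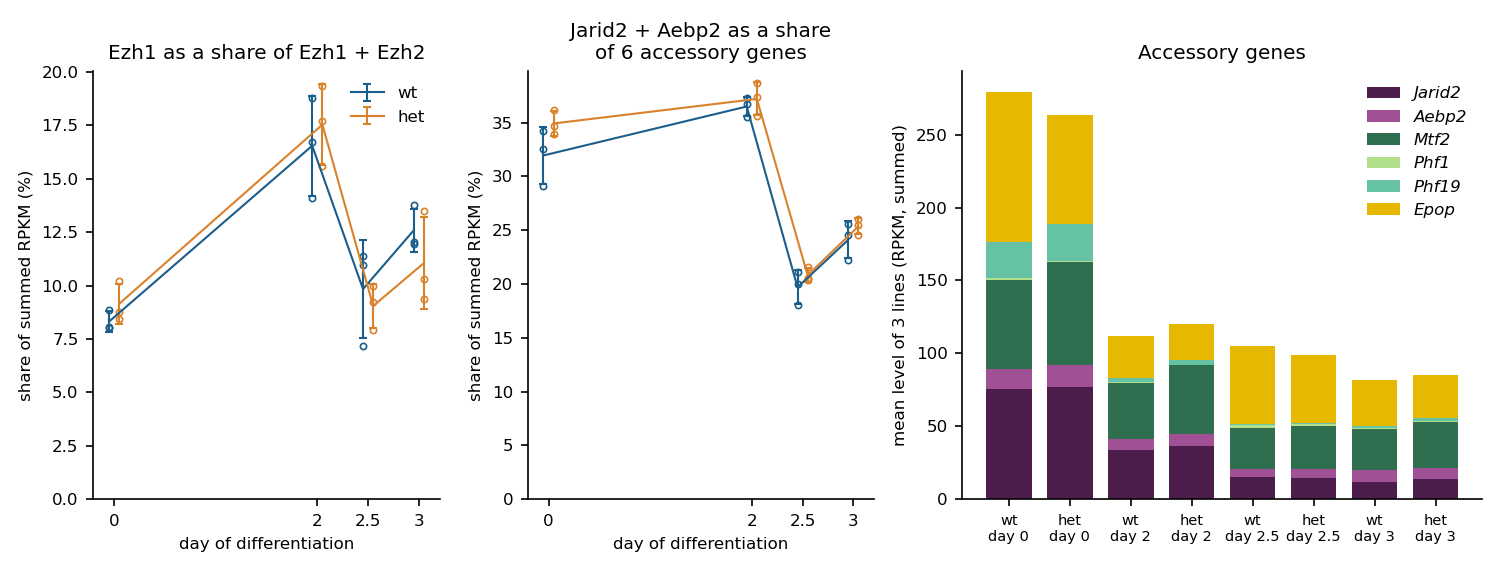
Ezh1 as a percentage of the summed RPKM of Ezh1 and Ezh2 (left), Jarid2 and Aebp2 as a percentage of the summed RPKM of the 6 accessory genes (centre), both with libraries as circles and mean ± SD of 3 lines, and stacked mean RPKM of the accessory genes by group (right). The Ezh1 share peaks on day 2 at 16.5% and 17.5%, and the accessory sum goes from 279.5 and 263 RPKM on day 0 to 81.7 and 85.1 RPKM on day 3.

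Het was then compared with wt on each day. By edgeR 0 of 10 members differed on day 0, day 2, day 2.5 or day 3, where 0.0%, 0.551%, 0.0% and 0.00638% of all genes tested did. At an unadjusted p under 0.05 there were 2 members on day 0, 4 on day 2, 1 on day 2.5 and 0 on day 3, and over all genes the numbers were 1649 of 15108 tested, 1576 of 15414, 822 of 15588 and 1432 of 15686. The log2 fold changes of the 10 members lay between -0.48 and 0.25 on day 0, -0.80 and 0.49 on day 2, -0.62 and 0.09 on day 2.5, and -0.16 and 0.34 on day 3. The 3 het libraries lay wholly above or below the 3 wt libraries for 5 members on day 0, 4 on day 2, 2 on day 2.5 and 1 on day 3, against 16.7%, 16.0%, 11.4% and 13.9% of all genes.

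The member with the smallest unadjusted p was Epop, which was lower in het. At day 0 the wt libraries were at 84.8 to 125 RPKM and the het libraries at 71.3 to 80.6 RPKM, and the het libraries were also below the wt libraries on day 2 and day 2.5, while on day 3 they overlapped. The log2 fold change was -0.48 on day 0 (p 0.00187, adjusted p 0.334, SE 0.12 in edgeR) and -0.26 on day 2 (adjusted p 0.466). Without wt line 1 the day 0 value was -0.30. The DESeq2 Wald test called Epop on day 0 (adjusted p 0.0192), as did edgeR without a filter beyond 1 count (6.97e-06) and without wt line 2 (0.0317), and over its alternatives the adjusted p ranged up to 0.905. DESeq2 called 0 members on the other days. With the counts of each line summed over the 4 days, edgeR called 0 members (0.00544% of all genes, 1663 genes at an unadjusted p under 0.05), and Epop had a log2 fold change of -0.26 (p 0.00175, adjusted p 0.341, SE 0.06), which DESeq2 called (0.0398). Phf1 had its 3 het libraries below the 3 wt libraries on day 0, day 2 and day 2.5 as well, at 41 to 60, 14 to 61 and 41 to 109 counts. Its log2 fold change was -0.29, -0.80 and -0.62 on these days (p 0.380, 0.145 and 0.0498, adjusted p 0.762, 0.660 and 0.907), and -0.38 with counts summed over days (p 0.0346, adjusted p 0.502, SE 0.16).

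Mtf2 had a higher fitted level in het on each day, and Phf19 had a higher one on day 2 and a lower one on day 2.5. Mtf2 was at 55.0, 67.3 and 62.0 RPKM in wt lines and at 70.1, 69.8 and 71.1 in het lines on day 0, which did not overlap, with a log2 fold change of 0.18 (p 0.0257, adjusted p 0.404, SE 0.07 in edgeR). It was 0.12 without wt line 1. At day 2 its log2 fold change was 0.28 (adjusted p 0.381) and 0.17 without het line 3, and that of Suz12 was 0.21 (adjusted p 0.400). For Mtf2 it was 0.07 on day 2.5 and 0.13 on day 3 (adjusted p 0.947 and 0.641). On day 3 each het library lay above each wt library for Mtf2. Phf19 had a log2 fold change of 0.49 on day 2 (p 0.0253, adjusted p 0.389, SE 0.20), with each het library above each wt library, and of -0.56 on day 2.5 (p 0.0676, adjusted p 0.907, SE 0.28). For the change from day 2 to day 2.5, the interaction of genotype with day gave -1.07 for Phf19 (p 0.00319, adjusted p 0.952, SE 0.32 in edgeR), and for the change from day 0 to day 2 it gave 0.47 (p 0.0115, adjusted p 0.754, SE 0.17). By edgeR 0 members passed in any of the 3 interactions, where 0.0%, 0.0% and 0.0% of all genes did, and DESeq2 also called 0 members. At an unadjusted p under 0.05 the interactions gave 1034 of 16387 genes tested, 850 of 16569 and 635 of 16486, with 1, 1 and 0 of the 10 members among them.

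**Figure D4:**
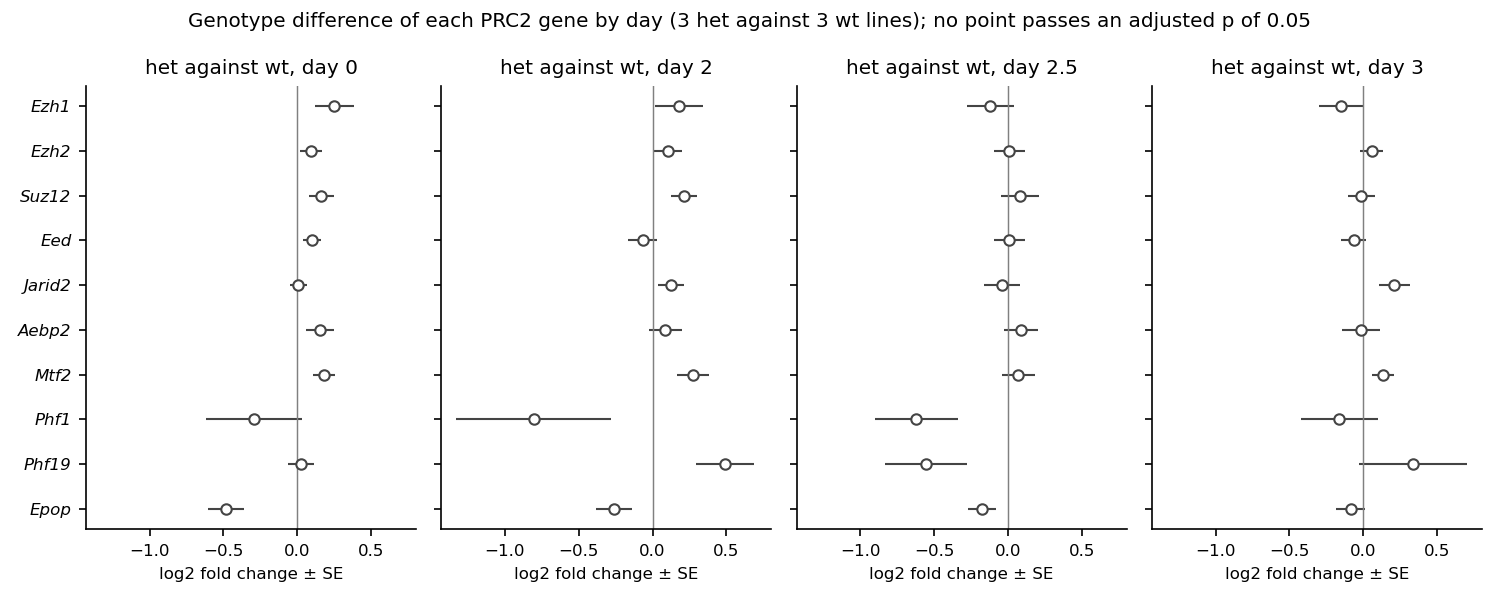
Log2 fold change ± SE (horizontal axes) of each PRC2 gene (vertical axis) in 3 het against 3 wt lines on each day. The points lie between -0.80 (Phf1 on day 2) and 0.49 (Phf19 on day 2), with wide SE for Phf1, and Epop lies at -0.48 on day 0.

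Markers of endoderm were lower in het on day 0 and day 2 by their summed level, and the genotypes overlapped on day 2.5 and day 3. The 10 markers (Gata6, Gata4, Sox17, Sox7, Foxa2, Dab2, Amn, Apoa1, Ttr and Cubn) summed to 308 to 467 CPM in wt and 141 to 241 CPM in het on day 0, and to 772 to 1399 and 398 to 609.7 CPM on day 2. At day 2.5 they summed to 455.7 to 1360.2 CPM in wt and 541.6 to 802 in het, and on day 3 to 578.0 to 1110.3 and 344 to 624 CPM. Of the 8 markers tested on each day, 8 had a negative log2 fold change in het, and 6 of them were called lower on day 2. Their median log2 fold change on day 2 was -1.06, against 0.0018 over all genes. Leaving out a line moved the calls of that day. Over all genes 77 were called lower, 190, 103 and 8 without wt line 1, 2 or 3, and 0, 3 and 0 without het line 1, 2 or 3. Ttr had 0 counts in the 6 libraries of day 0. The epiblast markers Fgf5, Dnmt3b and Otx2 summed to 948 to 1357 CPM on days 0 and 2 and to 139 to 252 CPM on day 3. Most of this was Dnmt3b, with wt means of 939 CPM on day 0 and 1142 CPM on day 2. Fgf5 had a wt mean of 10.8 CPM on each of these days, and Otx2 had 60.5 and 65.8 CPM. The neural markers Pax6 and Sox1 summed to 1.12 to 28.9 CPM over all libraries, and the mesoderm markers Tbx6 and Msgn1 to at most 21.9 CPM. The part of these markers in the genotype values of the PRC2 genes was not tested.

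Genes that share the work of PRC2 or remove its mark were described from a list of 7 partners. Exons annotated on the opposite strand overlap Rbbp4, Rbbp7, Lcorl and Kdm6b, so reads of both may be counted there. For Rbbp7, 90.5% of its 75-base stretches occur in no other gene's transcripts. The histone-binding subunit gene Rbbp7 went from 171 ± 7.23 RPKM in wt and 179 ± 6.05 in het on day 0 to 293 ± 28.8 and 280.3 ± 12.1 on day 3 (SD, n = 3), a rise of 0.79 and 0.65 on the log2 scale (adjusted p 1.61e-05 and 8.04e-07). Its paralogue Rbbp4 fell from day 2 to day 2.5 by 0.52 in wt and 0.42 in het (adjusted p 0.00240 and 0.000266). Of the genes of the PALI proteins, alternative partners in PRC2.1, Lcor fell from day 0 to day 3 by 0.84 and 1.02 (adjusted p 0.000121 and 1.18e-05). Lcorl rose by 1.11 and 0.75 (adjusted p 0.000138 and 1.47e-05). Counts per gene do not separate the transcripts that encode PALI proteins from other transcripts of these genes. The 2 H3K27 demethylase genes moved apart. Kdm6a fell by 0.98 in wt and 1.16 in het (adjusted p 3.88e-06 and 1.90e-07), and Kdm6b rose by 0.95 and 1.44 (adjusted p 0.000146 and 3.93e-07). AU022751, the gene of the PRC2 inhibitor EZHIP, was at 1.42 to 5.05 RPKM, and from day 0 to day 3 its log2 fold change was 0.11 in wt (adjusted p 0.804) with a rise of 0.79 in het (adjusted p 0.0179). Over that interval 3 of 7 partners rose and 2 fell in wt (27% and 26.6% of all genes), 4 rose and 3 fell in het (32.7% and 31.6%), and 0 of 7 differed between het and wt on any day by edgeR.

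**Figure D5:**
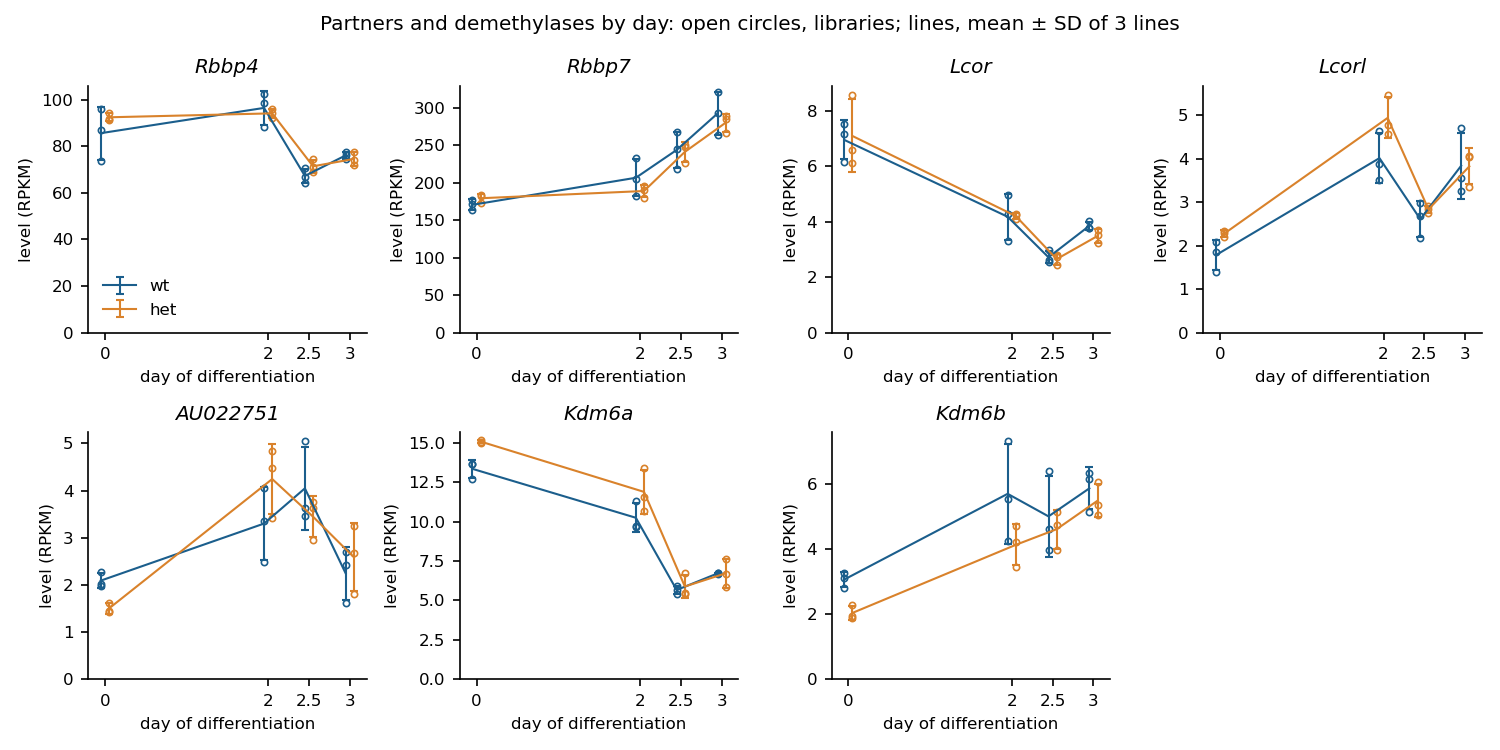
Levels in RPKM (vertical axes from 0, one scale per gene) of 7 PRC2 partner, inhibitor and H3K27 demethylase genes against the day of differentiation, with libraries as open circles and lines for the mean ± SD of 3 lines. Rbbp7 climbs from group means of 171 and 179 RPKM on day 0 to 293 and 280.3 RPKM on day 3.

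PRC1, which ubiquitinates histone H2A and acts beside PRC2, was described from 24 genes, of which 23 were tested in the comparisons of days. From day 0 to day 3, 8 rose and 9 fell in wt, where 27% of all genes rose and 26.6% fell, and 10 rose and 9 fell in het, where 32.7% rose and 31.6% fell. The 2 that rose most in wt were Yaf2 (1.69, adjusted p 6.52e-05) and Bcorl1 (1.65, adjusted p 0.000409), and the 2 that fell most were L3mbtl2 (-1.91, adjusted p 6.28e-08) and Phc1 (-1.83, adjusted p 6.30e-08). The median log2 fold change of the PRC1 genes was 0.24 in wt and 0.22 in het, where that of the 10 PRC2 genes was -0.95 and -1.07. Because Ezh2 is often described as a gene of dividing cells, 12 S phase genes of DNA replication were counted beside it. From day 0 to day 3, 0 rose and 7 fell in wt and 0 rose and 9 fell in het, with medians of -0.41 and -0.45, where 26.6% and 31.6% of all genes fell.

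Across the 24 libraries, the members fell into those that moved together and those that did not. Pearson's r of log2 CPM was 0.96 for Jarid2 with Mtf2, 0.94 for Mtf2 with Phf19, 0.94 for Jarid2 with Phf19 and 0.92 for Suz12 with Mtf2. Ezh1 had an r of -0.73 with Epop and 0.70 with Ezh2. The libraries share lines and days, so these values follow the day means, and after the mean of each group was removed r was 0.46 for Jarid2 with Mtf2, 0.13 for Mtf2 with Phf19, 0.34 for Jarid2 with Phf19, 0.69 for Suz12 with Mtf2, -0.15 for Ezh1 with Epop and 0.16 for Ezh1 with Ezh2. The 2 genes most like each member whose group means spanned over 2-fold were sought among 13623 genes with a group mean of at least 50 counts. For Ezh1 they were Dcaf8 (r of 0.95, n = 24 libraries) and Nampt (0.94), and Dcaf8 went from a group mean of 125 CPM in wt on day 0 to 193 CPM on day 2 and 127 CPM on day 2.5. For the core gene Eed they were Tns3 (0.99) and Pnp (0.98). For the PRC2.2 genes they were Upp1 (0.99) and Slc20a1 (0.99) beside Jarid2, and Ncor1 (0.96) and Zbtb44 (0.96) beside Aebp2. For the PRC2.1 genes they were Rif1 (0.98) and Enah (0.98) beside Mtf2, Cbfa2t2 (0.98) and Spp1 (0.98) beside Phf19, and Dus3l (0.97) and Rrs1 (0.97) beside Epop. For Phf1, whose counts were few, the values were lower, with Trim11 (0.87) and Arfip2 (0.87).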

How the data were processed

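Poly(A) RNA from 24 mESC libraries (6 separately derived lines on 4 days) was sequenced single-end with TruSeq RNA v2 or TruSeq Stranded kits, and which kit or strand setting applied to a library is not given in the sources used here. The authors trimmed reads with Trim Galore 0.4.4, aligned them to GRCm38.p6 with HISAT2 2.0.5 and counted them per gene in SeqMonk, and the values used here are their deposited raw counts. One pair of genes on opposite strands of the same interval had identical counts in 24 of 24 libraries. The 8 columns of group means in the count table and the authors' 2 tables of log2 RPKM (Hox genes, differentiation factors) were not used. Of the gene IDs, 35545 were found in GENCODE vM21, 99.5% with the same coordinates.

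Counts were scaled by TMM and filtered with filterByExpr, and edgeR 4.0.16 (R 4.3.3) quasi-likelihood tests were fitted per comparison over all genes, with only the groups compared, and adjusted by Benjamini-Hochberg with a threshold of 0.05. This gave 16 comparisons: het against wt on each day and over summed counts, 4 pairs of days in each genotype, and 3 interactions. RPKM used merged exon lengths and TMM-scaled totals, and CPM used the same totals. Figures were drawn with matplotlib 3.10.9 (Python 3.11.15). The fits were tested on simulated data.

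The members and all lists were chosen with earlier results of these data known. The text names all 10 members, Smchd1, the 7 partner genes, the 2 called PRC1 genes with the largest fold change each way (day 3 against day 0, wt), and, for members spanning over 2-fold, the 2 genes of highest correlation. S phase and cell type lists are given by counts or sums. Alternatives were scaling by the size factors of DESeq2 1.42.0 or by totals only, keeping every gene with at least 1 count, the DESeq2 Wald test, 1 fit of all 24 libraries, the line as a block, leaving out each line, and coding lengths. The line pairs the days of a genotype, since the same cell line was sampled on each day. Deviations from the group means correlated at -0.05 to 0.21 over 24 pairs of days. A number shared by a wt and a het line pairs nothing (-0.08 to 0.08 over 12 pairs).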

Additional observations from a re-analysis of the deposited data

How the results depend on the processing

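Of the counts of members called, 155 values under the alternatives kept their size within 1.5 times, 6 were larger and 6 smaller. Of the values of single members, 802 kept direction and side of the threshold, 30 lost and 19 gained a call and 10 turned direction. The count for het against wt on day 0 was 1 with no filter beyond 1 count and 1 with the DESeq2 Wald test in place of 0, and over the lines left out it was 0 to 1. With counts summed over days it was 1 with the DESeq2 Wald test in place of 0. The wt count for day 2.5 against day 2 was 4 to 5 over the lines left out in place of 8. For day 3 against day 2.5 it was 5 in the fit of all 24 libraries and 0 to 3 over the lines left out in place of 2 in wt, and 1 to 3 in place of 4 in het. With library totals as the only scaling, the Ezh2 log2 fold change from day 0 to day 3 turned to 0.040 in wt and 0.022 in het, and the median over all genes was 0.12 and 0.14 in place of 0.03 and 0.02. Over the lines left out, wt log2 fold changes from day 2.5 to day 3 ran from -0.0052 to 0.16 for Ezh2, -0.030 to 0.082 for Mtf2 and -0.14 to 0.43 for Phf19, and from day 0 to day 3 they ran from -0.15 to 0.0063 for Ezh2 and -0.10 to 0.11 for Phf1. In het from day 2.5 to day 3 they ran from -0.17 to 0.012 for Jarid2 and -0.021 to 0.16 for Mtf2. With coding length the Ezh1 share in wt was 9.13% on day 0 and 13.8% on day 3, and the PRC2.2 share on days 0, 2, 2.5 and 3 was 37.1, 41.3, 26.7 and 33.5% in wt and 39.6, 41.1, 28.1 and 33.9% in het. The cause was not tested for any of these changes, beyond the fewer libraries of the fits without a line and the other lengths used for the shares.

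The replicate block (the line) raised the wt count for day 3 against day 2.5 to 5 from 2, where 4687 in place of 2923 of all genes were called, and moved no other count of members by over 1.5 times. Over all genes, het against wt gave 0, 85, 0 and 1 called genes on days 0, 2, 2.5 and 3 with edgeR, 84, 234, 3 and 116 with the DESeq2 Wald test and 369, 384, 87 and 274 with no filter beyond 1 count, and over summed counts 1, 145 and 190. On day 2, 8 of the 85 genes were higher in het, against 50 of the 234 by DESeq2 and 83 of the 384 without the filter. In the fit of all 24 libraries the day counts were 1, 23, 1 and 15. Over the lines left out they were 0 to 68, 0 to 211, 0 to 3 and 0 to 93, and over summed counts 0 to 404, with 68 without wt line 2 and 211, 93 and 404 without wt line 1. Without wt line 2 the wt count over all genes from day 2.5 to day 3 was 29. Depth limits Phf1 (14 to 109 counts) and, on days 2.5 and 3, Phf19 (28 to 178 counts), and 3 lines a group limit the genotype comparisons.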
